A study of Mus musculus with 30 samples.

Results

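The respiratory chain is encoded by 2 genomes, and the transcripts of both were measured by RNA-seq in mouse hippocampus. Members were chosen by gene symbol alone: the mitochondrially encoded protein genes (mt-), nuclear symbols beginning with Ndufa, Ndufb, Ndufc, Ndufs, Ndufv, Uqcr, Cox4i to Cox8 and Atp5, and Sdha to Sdhd, Cyc1 and Cycs. The rule took 103 of the 17477 genes in the deposited table, 13 from mitochondrial DNA and 90 from the nucleus. Of the 90, 83 are counted here as subunits or electron carriers (38 of complex I, 4 of complex II, 9 of complex III, 1 cytochrome c, 16 of complex IV and 15 of complex V). Ndufa4 and Ndufa4l2 are counted under complex I by their symbols, although Ndufa4 is known to associate with complex IV. The other 7 share a prefix but are assembly or other factors (Ndufaf1 to Ndufaf4, Cox7a2l, Atp5s and Atp5sl).

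Complexes I to IV sit in the inner mitochondrial membrane and pass electrons from NADH and succinate to oxygen, pumping protons at complexes I, III and IV. Complex V, the ATP synthase, lets the protons back and makes ATP, on which synaptic transmission in the hippocampus depends heavily. Mitochondrial DNA is transcribed as long polycistronic RNAs that are then cut, while each nuclear subunit has its own promoter, mRNA and import route. Complex II has nuclear subunits only, and the other complexes need both genomes.

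The animals were adult C57 BL/6J mice. Social isolation (SI) mice lived singly after weaning, and group-housed (GH) mice shared cages. The female groups held 8 SI and 7 GH mice (animals 41 to 79), and the male groups 7 SI and 8 GH mice (animals 1 to 39). Each mouse gave 1 poly(A)-selected library of whole hippocampus. No group carried a transgene or received a drug, and the cage of a GH mouse is not in the labels. P-values of the gene fits measure the spread between mice that is left after surrogate variables, where these were fitted. All 6 marker genes listed for hippocampal principal cells were tested in each sex, and their summed level ran from 477 to 673 CPM (edgeR's count scaled by library size, with TMM factors) over the 30 mice.

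Libraries held 18809307 to 100844898 counts. Total counts were lower in SI than in GH males (two-sided p = 0.0392, exact permutation test with 6435 possible splits), while SI and GH females gave p = 0.391. SI males 25, 33 and 39 stood apart: genes with short transcripts took a larger share of their counts. This tilt is given below as the length slope, the change in a library's log2 CPM relative to the sex's mean per doubling of transcript length, over genes that are not members. It was -0.37, -0.35 and -0.28 in these males and from -0.03 to 0.19 in the other 12 males. The mean slope was -0.00291 in SI and 0.00332 in GH females (exact permutation test, two-sided p = 0.869), and -0.0946 in SI and 0.0828 in GH males (p = 0.0755). Member transcripts were short: the median length was 784 bases for mitochondrial and 690.5 bases for nuclear members, against 2341 bases for the genes tested in females.

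Some mitochondrial genes share bases, which limits how far their counts can be told apart. In the NCBIM37 annotation the end of mt-Atp8 and the start of mt-Atp6 coincide over 43 bases on the plus strand (chrM:7927-7969), 21.1% of mt-Atp8. The stretch is shown with the start codon of mt-Atp6 in capitals, and below it the 7 bases shared by mt-Nd4l and mt-Nd4 (chrM:10167-10173) with the start codon of mt-Nd4 in capitals.
mt-Atp8/mt-Atp6: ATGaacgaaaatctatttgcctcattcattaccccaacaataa
mt-Nd4l/mt-Nd4: ATGctaa
mt-Atp6 and mt-Co3 share 1 base, and mt-Nd5 and mt-Nd6 share 14 bases on opposite strands. mt-Nd6 was the only mitochondrial member on the minus strand. Whether reads were assigned by strand is not given in the sources used here, so reads from overlaps could fall to either gene.

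Nuclear members have promoters of their own, and 75 of the 90 had 1 in RefSeq's table of windows from 250 bases before to 50 bases after the transcription start (GRCm38.p6). The letters GCGCA, any base, then GCGC, a core of the site for NRF1, a factor known for driving respiratory chain genes, stood on either strand in 18 of these 75 (24%) and in 7.17% of 17491 protein-coding genes. The YY1 letters AAGATGGCG stood in 8 (10.7%) and in 2.14% of all. The ETS letters ACTTCCGG, which GABPA also binds, stood in 5 (6.67%) and in 5.69% of all. The motifs were counted independently of each other, and a match is only a match of letters. The windows of Sdha, Ndufs6 and Atp5h are shown because they hold 3 NRF1 matches, NRF1 with YY1, and NRF1 with ETS, in capitals. All 3 are on the minus strand and written in the direction of the gene.
Sdha, chr13:74350191-74350490: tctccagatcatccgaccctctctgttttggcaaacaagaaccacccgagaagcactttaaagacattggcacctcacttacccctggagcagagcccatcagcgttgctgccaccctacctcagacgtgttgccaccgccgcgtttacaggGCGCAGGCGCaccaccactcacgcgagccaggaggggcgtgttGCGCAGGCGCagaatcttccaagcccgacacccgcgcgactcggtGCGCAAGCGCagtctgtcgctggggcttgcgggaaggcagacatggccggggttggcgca
Ndufs6, chr13:73328433-73328732: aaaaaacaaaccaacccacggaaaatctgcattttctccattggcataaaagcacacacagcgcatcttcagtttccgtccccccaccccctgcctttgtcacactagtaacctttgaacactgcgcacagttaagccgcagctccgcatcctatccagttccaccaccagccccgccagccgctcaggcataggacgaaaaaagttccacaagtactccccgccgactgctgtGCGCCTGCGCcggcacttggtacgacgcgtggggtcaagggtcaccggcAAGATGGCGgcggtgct
Atp5h, chr11:115419870-115420169: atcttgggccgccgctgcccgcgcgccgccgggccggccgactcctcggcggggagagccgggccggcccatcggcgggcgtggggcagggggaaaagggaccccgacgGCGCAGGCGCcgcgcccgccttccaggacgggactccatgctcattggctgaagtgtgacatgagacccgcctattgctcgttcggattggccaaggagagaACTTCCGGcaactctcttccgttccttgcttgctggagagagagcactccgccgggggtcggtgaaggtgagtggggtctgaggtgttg

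In the controls, mitochondrial members stood far above nuclear ones. Levels between genes are compared per length, as CPM per 1000 bases of transcript. Annotated lengths (204 to 1824 bases for mitochondrial members) were used without a correction for fragment length, so the place of the shortest genes is uncertain. How evenly poly(A) selection captured the transcripts was not measured, and strand handling is not given. The levels are therefore levels in the counts. The median over the 13 mitochondrial members was 6653 CPM per 1000 bases in GH females and 4624 in GH males, and over the 90 nuclear members 142 and 132. mt-Co1, the catalytic core of complex IV, was highest, at 16980 ± 2966 (SD, n = 7) in GH females and 12575 ± 2516 (SD, n = 8) in GH males. mt-Nd3, a small core subunit of complex I, was lowest of the 13, at 2001 ± 478 in GH females and 1452 ± 365 in GH males. The order from mt-Co1 through mt-Co2, mt-Atp6, mt-Cytb, mt-Co3, mt-Nd1, mt-Atp8, mt-Nd4, mt-Nd2, mt-Nd4l, mt-Nd6 and mt-Nd5 to mt-Nd3 was the same in GH mice of both sexes. In both, neighbours in this order differed by more than the larger of their SDs at only 4 steps: mt-Co2 to mt-Atp6, mt-Nd4 to mt-Nd2, mt-Nd2 to mt-Nd4l and mt-Nd5 to mt-Nd3. The highest nuclear member was Cox4i1, the common isoform of complex IV subunit 4, at 1315 CPM per 1000 bases in GH females, below every mitochondrial gene.

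All 13 mitochondrial genes were downregulated in SI females (quasi-likelihood F test in edgeR, p adjusted by Benjamini-Hochberg over all genes). Their Log2FC ran from -0.42 to -0.32 with a median of -0.37, and adjusted p ran from 0.00703 to 0.0425. The median over all 16026 genes tested was 0.01. In this comparison 3.89% of genes were DEGs at adjusted p below 0.05, and 2.93% were downregulated DEGs. The 13 genes varied together over mice, as given below, so they are not 13 independent results. The decrease covered each complex with a mitochondrial subunit: 7 genes of complex I, 1 of complex III, 3 of complex IV and 2 of complex V.

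Within complex I, mt-Nd1 (chrM:2751-3707), a membrane core subunit near the quinone site, ran from 3261 through a median of 5906 to 8374 CPM in SI and from 5194 through 7509 to 9727 CPM in GH females. In all, 3 SI mice lay below the lowest GH mouse, and 2 GH mice lay above the highest SI mouse. Its Log2FC was -0.37 ± 0.0618 (SE; edgeR adjusted p = 0.00703). mt-Nd4 (chrM:10167-11544), a proton-pumping subunit, ran from 3534 through 6498 to 8398 CPM in SI and from 5758 through 8442 to 10108 CPM in GH. All 8 SI mice were below the GH median, and the Log2FC was -0.42 ± 0.0745 (edgeR adjusted p = 0.00837). mt-Nd4l (chrM:9877-10173), its short upstream neighbour, ran from 615 through 796 to 1005 CPM in SI and from 847 through 1082 to 1413 CPM in GH. It had the clearest split of the 13, with 5 of 8 SI mice below the lowest GH mouse, and a Log2FC of -0.40 ± 0.0863 (edgeR adjusted p = 0.0167). mt-Nd3 (chrM:9459-9806) showed the weakest call, with a Log2FC of -0.32 and edgeR adjusted p = 0.0425, and its SI values, 281 to 1061 CPM, spanned beyond both ends of the GH values, 378 to 910 CPM. mt-Nd2, mt-Nd5 and mt-Nd6 gave Log2FC of -0.33, -0.40 and -0.34.

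In complex III, mt-Cytb (chrM:14145-15288), the cytochrome b that carries the quinone sites, ran from 4526 through 8035 to 10167 CPM in SI and from 7035 through 10174 to 12187 CPM in GH females. Every SI mouse was below the GH median, and the Log2FC was -0.37 ± 0.0679 (edgeR adjusted p = 0.00901). In complex IV, mt-Co1 (chrM:5328-6872) ran from 11675 through 20047 to 26232 CPM in SI and from 17726 through 26524 to 31444 CPM in GH. Again all 8 SI mice were below the GH median and 3 below the lowest GH mouse, with a Log2FC of -0.36 ± 0.0612 (edgeR adjusted p = 0.00703). mt-Co2 and mt-Co3, the other core subunits, gave Log2FC of -0.34 each. In complex V, mt-Atp6 (chrM:7927-8607), the proton channel subunit, gave a Log2FC of -0.38, and mt-Atp8 (chrM:7766-7969) gave -0.42 ± 0.0947 (edgeR adjusted p = 0.0227). mt-Atp8 ran from 455 through 1127 to 1395 CPM in SI and from 760 through 1447 to 1771 CPM in GH, with all 8 SI mice below the GH median. For none of the 13 did the SI and GH ranges separate, which 0.312% of genes did in females.

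These calls needed surrogate variables, hidden factors that sva estimated from the counts: 3 in females. The mean log2 CPM of mitochondrial members had an SD between mice of 0.46 in SI and 0.31 in GH females. With the fitted part of the surrogate variables removed, the SD was 0.13 in each group. The variables were estimated from these same counts, mitochondrial genes included. A smaller SD therefore follows from the removal and does not measure the spread between mice. The absolute r of the mitochondrial mean with the 3 variables was 0.67, 0.17 and 0.51. Without surrogate variables the Log2FC of all 13 was still negative (median -0.36). edgeR then called 0 of 13 and 0 of all genes, and DESeq2 without them called 1, among 401 genes in all. With them DESeq2 called 12, among 1262 genes in all. edgeR also called 0 of 13 when SI 45, SI 68 or GH 71 was left out, and 6 when SI 63 was left out. The median of the 13 then was -0.34, -0.32, -0.24 and -0.31, and genes called in all were 458, 88, 446 and 169.

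The lower mitochondrial level was also visible as a share of each library. Mitochondrial members took 3.97% of counts in the lowest SI female (45), a median of 7.29% and 9.30% in the highest (53). In GH females the share ran from 6.02% (46) through 8.90% to 10.5% (78). Nuclear members took 1.11%, 1.30% and 1.65% in SI and 1.13%, 1.32% and 1.61% in GH females. The nuclear shares covered nearly the same range, while 3 SI mice had a mitochondrial share below every GH mouse. The log2 ratio of the mitochondrial to the nuclear sum ran from 1.84 through 2.43 to 2.71 in SI and from 2.26 through 2.72 to 3.12 in GH females. All 8 SI females were below the GH median of this ratio, and 3 were below the lowest GH mouse.

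**Figure D1:**
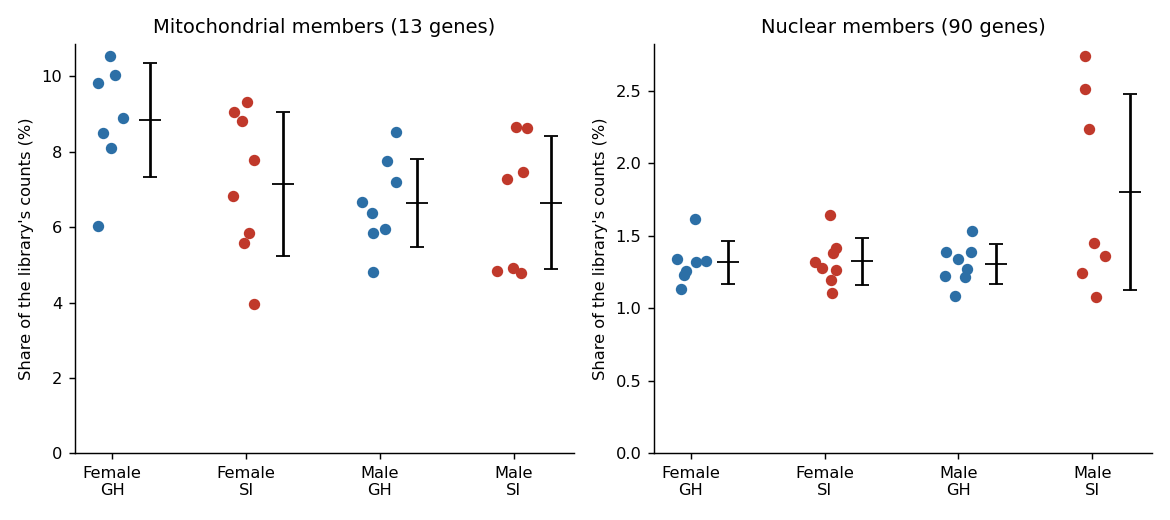
Share of each library's counts (%, vertical axes from 0) taken by the 13 mitochondrial members (left) and the 90 nuclear members (right). Each point is 1 mouse, SI in red and GH in blue, and black bars are mean ± SD; SI females reach down to 3.97% for mitochondrial members, and 3 SI males reach 2.24% to 2.74% for nuclear members.

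Markers of other cells moved in the same female comparison. All 7 astrocyte markers had a negative Log2FC, 4 of them DEGs, and their summed level was 4530 to 6226 CPM in SI and 5383 to 7325 CPM in GH. Of 8 neuron markers 7 had a positive Log2FC, and 1 was a downregulated and 1 an upregulated DEG. The neuron sum was 9510 to 10384 CPM in SI and 9749 to 11600 CPM in GH. All 8 SI mice were below the GH median of both the astrocyte and the neuron sum. All 7 oligodendrocyte markers had a negative Log2FC and 0 were DEGs (sum 5967 to 9037 CPM in SI, 6602 to 9980 CPM in GH). All 6 endothelial markers had a positive Log2FC and 1 was an upregulated DEG. Their sum was 163 to 215 against 139 to 170 CPM, with 7 of 8 SI mice above every GH mouse. All 7 microglia markers (354 to 456 against 376 to 454 CPM) had a negative Log2FC, and all 8 choroid plexus markers (1576 to 4054 against 877 to 4970 CPM) a positive one. Both sets gave 0 DEGs. The 6 markers of hippocampal principal cells all had a positive Log2FC, 3 at unadjusted p below 0.05 and 0 DEGs, and their sum was 484 to 666 CPM in SI and 477 to 554 CPM in GH, with 5 of 8 SI mice above every GH mouse. All listed markers passed the filter on low counts, and the part of cell composition in the mitochondrial result was not tested. In whole tissue, fewer cells of a type and less RNA per cell cannot be told apart.

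Nuclear members gave smaller values in females. Of 89 tested (Cox7b2 failed the filter on low counts), 69 (77.5%) had a negative and 20 a positive Log2FC, beside 47.2% negative among all genes; the median was -0.03, and 1 was a DEG. The share of DEGs among all genes was 3.89%, and the difference between the genomes was not tested. The DEG was Ndufb9 (NCBIM37 chr15:58765365-58771044, plus strand), an accessory subunit of the membrane arm of complex I. It ran from 116 through 156 to 237 CPM in SI and from 150 through 185 to 261 CPM in GH females, with 2 SI mice below the lowest GH mouse. Its Log2FC was -0.18 ± 0.0458 (edgeR adjusted p = 0.0386). The number of nuclear DEGs was unstable, from 0 to 8 over the alternative settings and over the mice left out. The fits that gave 8 called 1083 of 16026 and 1062 of 16003 genes. Ndufb9 lost its call without SI 49, SI 63, SI 73, GH 48 or GH 54.

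By complex, the nuclear subunits had small Log2FC in females. Complex I gave 28 negative and 10 positive values (median -0.03), complex II 3 and 1 (median -0.06), complex III 9 and 0 (median -0.01), complex IV 11 and 4 of 15 (median -0.07), and complex V 13 and 2 (median -0.03). At unadjusted p below 0.05 stood 14 of 89 nuclear members, 11 negative and 3 positive, beside 20.2% of all genes. The smallest p in complex IV was that of Cox6a1, the broadly expressed isoform of subunit 6a, at -0.16 ± 0.0459 (edgeR adjusted p = 0.063). It ran from 381 through 463 to 599 CPM in SI and from 448 through 529 to 749 CPM in GH. Cox4i1 gave a Log2FC of -0.17 (edgeR adjusted p = 0.1005). Sdhc, a membrane anchor of complex II, gave -0.07, Uqcrh, the hinge protein of complex III, -0.09, Atp5e, the epsilon subunit of the ATP synthase, -0.13, and Cycs, the mobile carrier cytochrome c, -0.01; none of these 4 passed the threshold (edgeR adjusted p from 0.192 to 0.897). Of the 7 factors 4 had a negative Log2FC and 0 were DEGs.

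**Figure D2:**
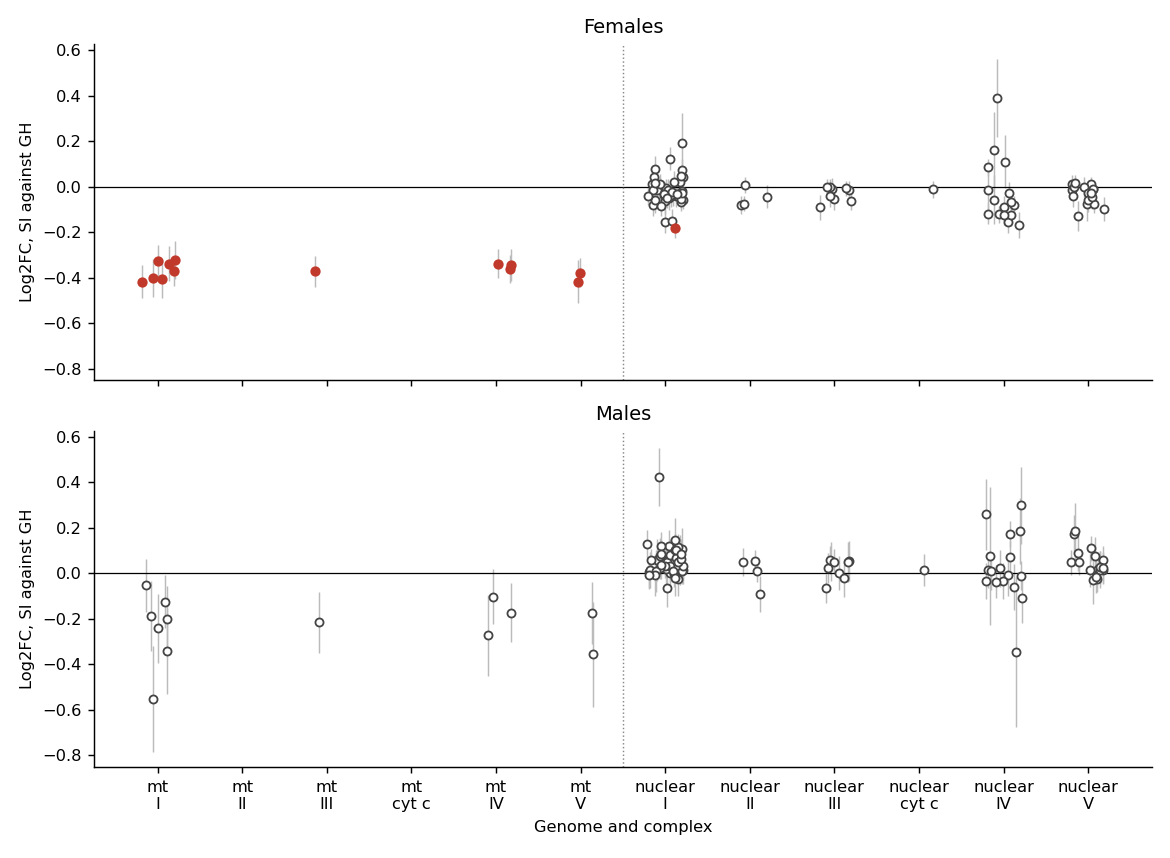
Log2FC of SI against GH for each member tested, the 7 factors included, by genome (mt or nuclear) and complex, in females (top) and males (bottom). Points are genes with SE bars, filled red where edgeR's adjusted p was below 0.05: 13 mitochondrial genes and Ndufb9 in females, and 0 in males.

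In males no member was a DEG, and neither was any other of the 15833 genes tested (0 by edgeR, lowest adjusted p 0.295). All 13 mitochondrial genes again had a negative Log2FC, from -0.55 to -0.05 with a median of -0.20, but adjusted p ran from 0.354 to 0.876. At unadjusted p below 0.05 stood 1 mitochondrial and 4 nuclear members, beside 13% of all genes. Nuclear members gave 70 positive and 20 negative values with a median of 0.03, against a median of -0.00197 for all genes. DESeq2 with the same surrogate variables called 0 members and 44 genes in all. A single mouse decided much of this. Without SI 27, edgeR called 8 mitochondrial members (negative) and 12 nuclear members (positive), among 2414 of 15790 genes tested.

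The male nuclear level rested on SI 25, 33 and 39. Nuclear members took 2.74%, 2.51% and 2.24% of their counts, above every GH male (1.08% to 1.53%, median 1.31%), whereas the other 4 SI males lay between 1.07% and 1.45%. Mitochondrial members took 4.79% to 8.65% in SI (median 7.29%) and 4.81% to 8.52% in GH males (median 6.52%), so these ranges nearly coincided. Summed marker levels also differed in range: astrocyte markers stood at 3481 to 5912 CPM in SI and 4824 to 6652 CPM in GH males, neuron markers at 7009 to 11155 and 9968 to 11040 CPM, and microglia markers at 344 to 638 and 352 to 435 CPM. Oligodendrocyte markers stood at 5278 to 10806 and 5981 to 7922 CPM, with 4 of 7 SI males above every GH male. Endothelial markers stood at 173 to 296 and 150 to 219 CPM, with 3 of 7 above. Choroid plexus markers stood at 39.7 to 4164 and 40.8 to 2241 CPM. SI 25 (4164) and SI 33 (3822) were above every GH male, and SI 39 (2144) was not. The highest microglia sums were those of SI 25, 33 and 39 (638, 606 and 541 CPM). None of these markers was a DEG; their part was not tested. The log2 ratio of the mitochondrial to the nuclear sum ran from 1.41 through 1.79 to 2.67 in SI and from 2.06 through 2.30 to 2.62 in GH males, with 5 of 7 SI males below the lowest GH male and SI 27 above the highest. The direction of the nuclear median in males followed the setting: 0.62 without surrogate variables, 0.03 with 2 of them, and -0.09 without the 3 males, when 77 of 90 values were negative. Without these 3 males the mitochondrial median was -0.20, with 13 of 13 values negative and 0 called.

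Nuclear members with the smallest p per complex in males show the same spread. Ndufa4l2, the hypoxia-responsive relative of the complex IV-associated Ndufa4, ran from 2.32 through 4.19 to 6.80 CPM in SI and from 1.76 through 2.38 to 2.52 CPM in GH males, with 6 of 7 SI mice above the highest GH mouse. Its Log2FC was 0.42 ± 0.126 (edgeR adjusted p = 0.30). Cox5a, a matrix-facing subunit of complex IV, ran from 70.6 through 100.8 to 251 CPM in SI and from 64.3 through 82.8 to 87.4 CPM in GH. In 5 of 7 SI males it exceeded every GH male, and the Log2FC was 0.17 ± 0.0589 (edgeR adjusted p = 0.312). Atp5d, the delta subunit of the ATP synthase, gave 0.17, Sdhd, a membrane anchor of complex II, -0.09, Uqcrc2, a core protein of complex III, -0.07, and Cycs 0.01. None passed the threshold (edgeR adjusted p from 0.375 to 0.952), and the values of Sdhd and Uqcrc2 were positive without surrogate variables.

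Within the mitochondrial genome, SI 25, 33 and 39 split gene by gene. mt-Nd3 and mt-Nd4l are neighbours of similar length (348 and 297 bases). mt-Nd3 stood at 1782, 1614 and 1190 CPM in these 3 males, against 324 to 680 CPM in GH males and 289 to 616 CPM in the other SI males. mt-Nd4l stood at 100, 138 and 186 CPM, against 602 to 1017 CPM in GH males and 377 to 938 CPM in the other SI males. The ratio of mt-Nd3 to mt-Nd4l was therefore up to 17.8 in SI 25, while the highest was 0.99 in GH males, 0.83 in the other SI males, 0.95 in GH females and 1.49 in SI females. The highest values of females were in GH 78 and SI 53, which also had the lowest length slopes of their groups.

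mt-Nd5, mt-Atp8 and mt-Co1 were below the GH median in these 3 males, like mt-Nd4l. mt-Co2, mt-Atp6, mt-Co3, mt-Nd1 and mt-Nd6 were above it, like mt-Nd3. SI 25 was lowest for mt-Co1 (-0.86 log2 units) and mt-Atp8 (-1.25). mt-Co1 in SI 33 (-0.28) and SI 39 (-0.25) lay within the GH values, -0.54 in GH 22 to 0.41 in GH 24. mt-Atp8 was lower in SI 8 (-0.96) and SI 38 (-0.92) than in SI 33 (-0.59) and SI 39 (-0.47). mt-Nd5 ran from 1657 through 2346 to 5432 CPM in SI and from 3344 through 3937 to 5695 CPM in GH males, with 6 of 7 SI mice below the lowest GH mouse. mt-Atp8 ran from 383 through 608 to 1358 CPM in SI and from 728 through 914 to 1266 CPM in GH, with 5 of 7 below. Of the 103 members 0 had SI and GH ranges that separated in males, which 0.0568% of genes did. mt-Nd6, on the other strand beside mt-Nd5, ran from 874 through 1759 to 3413 CPM in SI and from 911 through 1343 to 1555 CPM in GH. The ratio of mt-Nd6 to mt-Nd5 reached 1.89 in SI 25 and 0.37 at most in GH males. For mt-Nd4l the Log2FC was -0.55 ± 0.233 (edgeR adjusted p = 0.354, unadjusted p = 0.0299), -0.31 without the 3 males (adjusted p = 0.742) and -1.09 without SI 27 (adjusted p = 0.00445). Over the 13 genes, SI 25 spanned 4.72 log2 units around the GH medians, SI 33 4.11 and SI 39 3.25, against 0.23 to 0.82 in the other SI males and 0.23 to 0.55 in GH males.

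**Figure D3:**
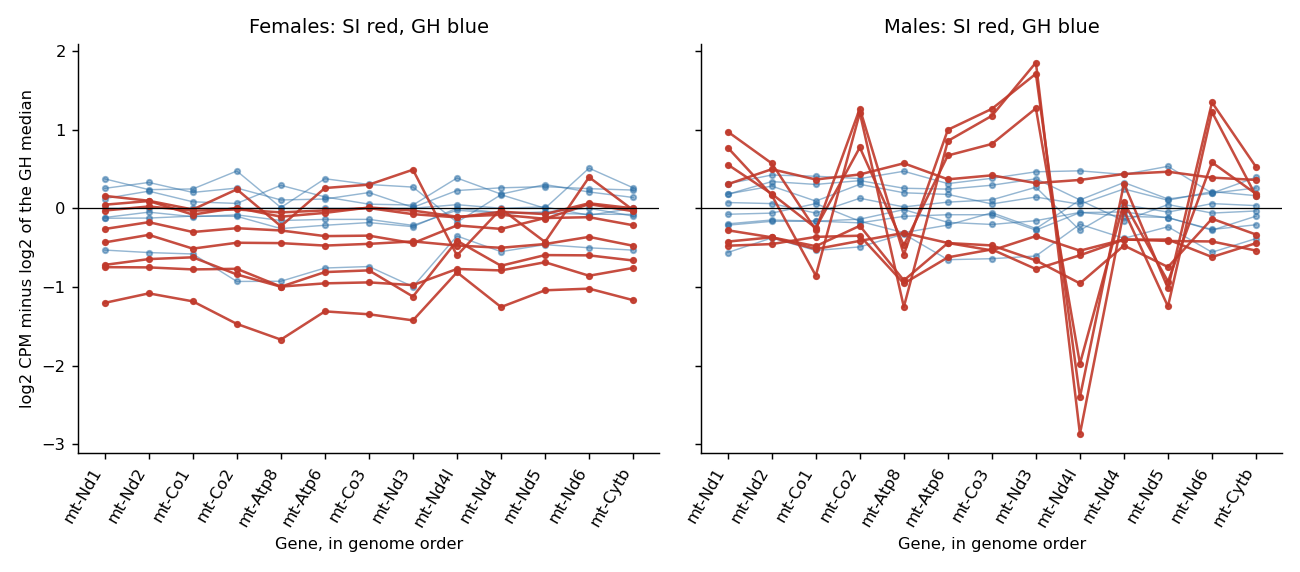
Log2 CPM of each mitochondrial gene minus the log2 of the GH median of the same sex (vertical axis), with genes in genome order, in females (left) and males (right). Each line is 1 mouse, SI red and GH blue; 5 of 8 SI females lie below 0 at every gene, SI 53 spans 1.09 log2 units with its ends at mt-Nd3 and mt-Nd4l, and 3 SI males rise to 1.85 at mt-Nd3 and drop to -2.87 at mt-Nd4l.

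Whether the effect of housing differed between the sexes was tested as a sex-by-housing term fitted to all 30 mice together. No member passed (edgeR, lowest adjusted p 0.453), and neither did any other of 16391 genes (0 called, lowest adjusted p 0.117). In this joint fit the term (male minus female) was positive for all 13 mitochondrial genes, with a median of 0.32; for mt-Nd4l the Log2FC of the separate fits went the other way, -0.55 in males and -0.40 in females. Of the 13, 10 had unadjusted p below 0.05, beside 7.75% of all genes. These genes varied together over mice, as given below, so the 10 are not independent results and the shares cannot be compared. mt-Nd1 gave the smallest p, with a difference of 0.37 ± 0.104 (edgeR adjusted p = 0.453). Nuclear members gave a median difference of 0.04, and 0 of 90 had unadjusted p below 0.05. Without SI 25, 33 and 39 the median differences were 0.40 and 0.0020, and 0 members were called. Without surrogate variables they were 0.37 for mitochondrial members, 3 of 13 negative, and 0.67 for nuclear members, 87 of 90 positive. DESeq2 without them gave 0.40 and 0.69, and removing length and GC trends without them 0.11 and 0.26, so which genome differed more between the sexes followed the setting. DESeq2 with surrogate variables called 0 members and 11 genes in all.

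The mean over nuclear members followed the length slope of a library closely, and the mean over mitochondrial members less so. Over 15 females the mean log2 CPM of nuclear members and the length slope gave Pearson's r = -0.97 and Spearman's rho = -0.95, and over 15 males -0.99 and -0.96. For mitochondrial members the values were -0.58 and -0.55 in females and -0.46 and -0.46 in males. In SI 25, 33 and 39 their mean covers genes that moved in opposite directions, and the part of this in the lower r was not tested. In SI 25, which had the lowest slope, mt-Nd3 stood at 1.85 and mt-Nd4l at -2.87 log2 units from the GH medians. SI 33 and SI 39 went the same ways. Slopes of single mitochondrial genes were not compared. Leaving out the 2 mice farthest from the median slope, the nuclear r was -0.93 in females and -0.98 in males. Over the 12 males without SI 25, 33 and 39 it was -0.95. The mitochondrial r under the same 3 conditions was -0.53, -0.38 and -0.44. These are descriptions: the points share normalization, and members are short. The first surrogate variable tracked the length slope (absolute r = 0.95 in females and 0.98 in males).

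**Figure D4:**
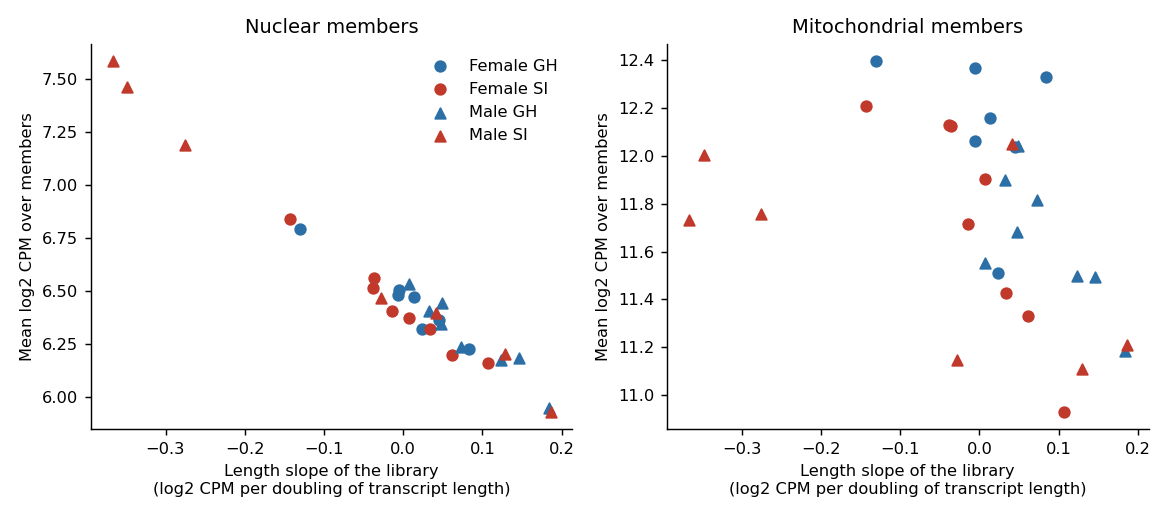
Mean log2 CPM over nuclear members (left) and mitochondrial members (right) against the length slope of each library (change in log2 CPM per doubling of transcript length). Circles are females, triangles males, SI red and GH blue, 1 point per mouse. The nuclear mean falls along a line (r = -0.97 in females, -0.99 in males). The mitochondrial mean scatters more (r = -0.58 and -0.46). In some mice it covers genes that moved in opposite directions, and the part of this in the scatter was not tested.

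Members of each genome varied together over mice. Among 78 pairs of mitochondrial genes the median Pearson's r of log2 CPM was 0.96 over 15 females and 0.69 over 15 males, and 0.92 over the 12 males without SI 25, 33 and 39. Pairs with mt-Nd4l had a median of 0.75 in females, -0.35 in all males and 0.82 in the 12 males. Among pairs of nuclear subunits the median was 0.88 in females, 0.97 in males and 0.83 in the 12 males. Pairs of 1 mitochondrial and 1 nuclear gene gave 0.63, 0.59 and 0.47. All genes of a mouse share its library, so these values carry no p.

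Several subunits exist as paralogues, and the broadly expressed form stood above the tissue-restricted form in each pair. Per length, Cox4i1 exceeded Cox4i2, the isoform linked to low oxygen, by 708 to 1337 times in GH females and 693 to 913 times in GH males. Cox6a1 exceeded the muscle form Cox6a2 by 68.2 to 153 times in GH females, and Cox8a exceeded the muscle form Cox8b by 53.1 to 202 times. Cox7a2 exceeded the muscle form Cox7a1 by 18.4 to 36.7 times, Cox6b1 exceeded the testis form Cox6b2 by 23.4 to 67.3 times and Ndufa4 exceeded Ndufa4l2 by 160 to 290 times. Of the genes for the c subunit of the ATP synthase, Atp5g3 and Atp5g1 stood at 330 and 252 CPM per 1000 bases in GH females and Atp5g2 at 20.7. No 31-base word was shared between the transcripts of any of the 11 paralogue pairs searched, so their reads could largely be told apart. No paralogue was a DEG in either sex (edgeR); Cox8b, at 1.83 to 5.38 CPM in females, gave a Log2FC of 0.39 with adjusted p = 0.21.

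Genes that serve the chain were counted from lists. In females, of 43 assembly factors outside the rule 1 was downregulated, Coa5 (6330578E17Rik in the table), a complex IV assembly factor (Log2FC -0.16, edgeR adjusted p = 0.0213). Of 27 genes that copy, transcribe or process mitochondrial DNA and RNA 0 were DEGs, with 21 positive values and a median of 0.06. Of 76 mitochondrial ribosomal proteins 0 were DEGs (26 negative and 50 positive values), and 0 of 10 regulators of mitochondrial biogenesis and 0 of 7 carriers were. At unadjusted p below 0.05 stood 6 of the 43 genes, 5 of the 27, 6 of the 76, 2 of the 10 and 0 of the 7, beside 20.2% of all genes, of which 3.89% were DEGs. In males 0 genes of these 5 lists were DEGs. Another 7 genes, whose newer symbols match the rule but whose symbols in the table do not, gave 0 DEGs in either sex, with 5 negative values in females and 4 in males.

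The medians of the 2 genomes under each setting show which of these values are steady. In females the mitochondrial median stayed between -0.47 and -0.24 over 29 fits and all 13 genes were negative in each, while the nuclear median stayed between -0.06 and -0.01. In males the mitochondrial median ran from -0.36 to 0.04 over 30 fits and was negative in 27, and the nuclear median ran from -0.09 to 0.64 and was negative in 8.

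**Figure D5:**
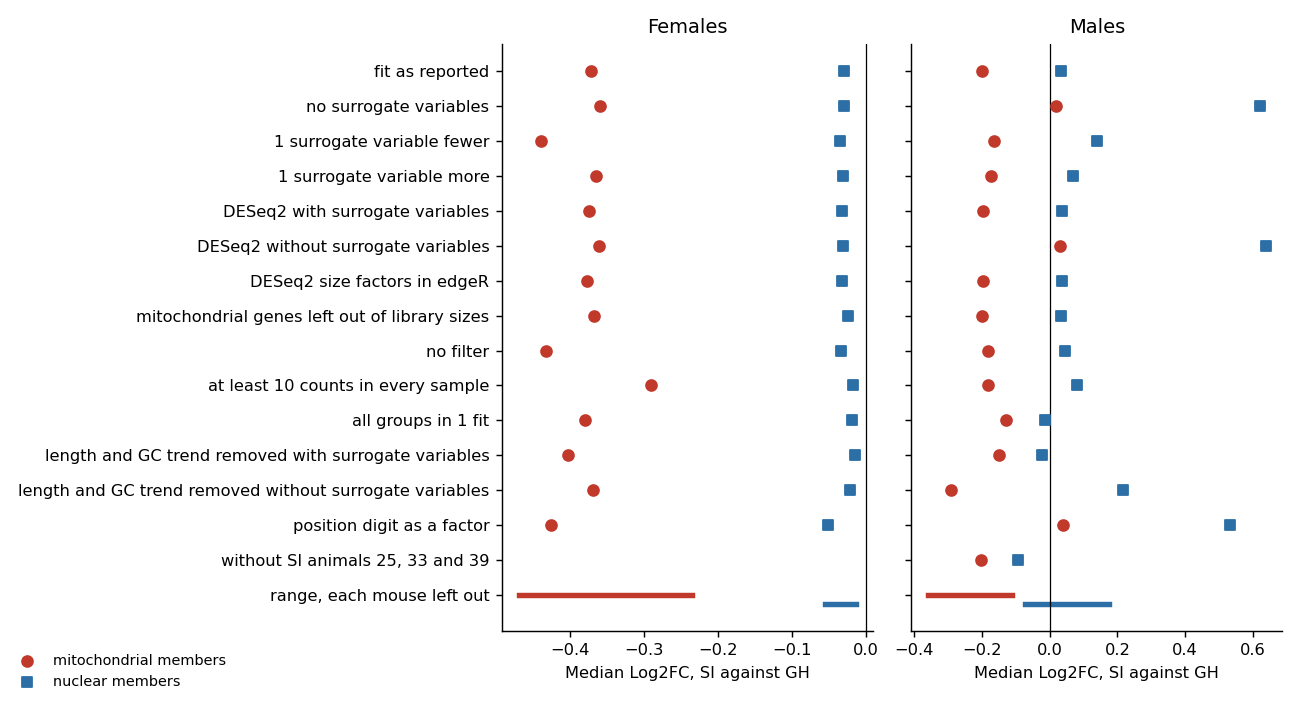
Median Log2FC of SI against GH over mitochondrial members (red circles) and nuclear members (blue squares) in the fit as reported and under each alternative, in females (left) and males (right, with a wider axis). Bars at the bottom span the fits with 1 mouse left out; in females the 2 sets never overlap (-0.47 to -0.24 against -0.06 to -0.01), and in males the nuclear median reaches 0.64.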

How the data were processed

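Hippocampal RNA of 30 mice was sequenced as poly(A)-selected paired-end libraries. The authors deposited 1 table of estimated counts per gene, held as whole numbers. Per the labels, the submitters' processing notes name Trimmomatic 0.39, Salmon 1.8.0 and DESeq2 1.24.0, and how strand was handled is not given in the sources used here. Each gene in the table had a total of at least 100 counts. Symbols were found for 16439 gene IDs (94.1%) and transcript lengths for 15964 (91.3%), all 103 members included. Coordinates are from NCBIM37, and promoter windows from RefSeq (GRCm38.p6).

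Counts were tested in R 4.3.3 with edgeR 4.0.16 (quasi-likelihood, TMM), within each sex, with surrogate variables from sva 3.50.0 (3 in females, 2 in males, 4 for the sex-by-housing term). Genes with low counts were filtered (at least 10 counts in enough libraries and 15 in total), and DEGs had adjusted p below 0.05. CPM in the text is not adjusted for surrogate variables, whereas Log2FC is. Alternatives were DESeq2 1.42.0, other numbers of surrogate variables, other filters and size factors, removal of length and GC trends with lowess, the digit that ends the position code in each sample title (position digit) as a factor in place of surrogate variables, and leaving out each mouse. The fits were also run on simulated data with fewer surrogate variables than used here, so that run cannot judge the reported calls. The members, lists and tests were chosen with earlier results of these data known. Members named in full were all 13 mitochondrial genes, called members, the nuclear member with the smallest p in each complex and sex, sets of paralogues, and called genes of the pathway lists that are reported; Cox4i1 in the female comparison was named after its values were seen. Library totals of 18809307 to 100844898 counts leave counting error small for mitochondrial genes. A further pathway list is not reported here.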

Additional observations from a re-analysis of the deposited data

Results flagged for a closer look

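In groups of 7 or 8 mice, 116 sets of values were searched for a mouse whose gap to its nearest neighbour was large against the range of its group. In all, 10 were found (8.62%). For independent sets chance gives about 1 in 20, but these sets share mice and genes that vary together, so the rates cannot be compared. In SI males, SI 27 stood highest for mt-Nd5 (5432 CPM, next 2987), mt-Co1 (24723 CPM, next 16127) and mt-Atp8 (1358 CPM, next 735). In GH males, GH 24 stood highest for mt-Nd4l (1017 CPM, next 787) and mt-Nd5 (5695 CPM, next 4272), and GH 16 lowest for Ndufa4l2 (1.76 CPM, next 2.22). In GH females, GH 78 had the lowest length slope (-0.13, next -0.00599) and the highest level of Sdhc (90.7 CPM, next 77.4) and Cox5a (99.5 CPM, next 78.95). In SI females, SI 53 stood highest for Cox5a (119.5 CPM, next 87.6).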

How the results depend on the processing

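The number of mitochondrial DEGs in females, 13, was 0 without surrogate variables. It was also 0 with length and GC trends removed without them, and with the position digit as a factor. It was 1 by DESeq2 without surrogate variables, 4 with at least 10 counts in every sample and 7 with all groups in 1 fit. Genes called in all were 0, 41, 0, 401, 588 and 437 in that order. With 1 mouse left out the mitochondrial number ran from 0 to 13. The number of nuclear DEGs in females, 1, was 0 without surrogate variables (edgeR and DESeq2), with mitochondrial genes left out of library sizes, with all groups in 1 fit, with trends removed without surrogate variables and with the position digit. It was 8 with 1 surrogate variable more, 6 by DESeq2 with them and 6 with trends removed and surrogate variables. Genes called in all were then 1083, 1262 and 1387 of 16026. The nuclear number was 4 with no filter (685 of 17475 genes called) and 2 with at least 10 counts in every sample (588 of 14831). With 1 mouse left out it ran from 0 to 8, the highest without SI 52 (1062 of 16003). It was 0 without SI 49, SI 63, SI 73, GH 48 or GH 54, and above 1 without SI 52, GH 46, GH 71, GH 78 or GH 79. In males DESeq2 without surrogate variables called 21 nuclear members, among 304 of 15830 genes tested. Leaving out 1 mouse gave 0 to 12 nuclear and 0 to 8 mitochondrial DEGs. The highest numbers came without SI 27, when 2414 of 15790 genes were called. The male nuclear median was 0.62 without surrogate variables, 0.64 by DESeq2 without them and 0.53 with the position digit. Signs turned for Cycs in females (0.029 with at least 10 counts; -0.056 to 0.036 with 1 mouse left out) and, in males, for Sdhd (0.20, 0.22 and 0.23 without surrogate variables, by DESeq2 without them and with the position digit; -0.15 to 0.033 with 1 mouse left out), Uqcrc2 (0.026, 0.038 and 0.042 under the same settings), Atp5d (-0.040 to 0.31 with 1 mouse left out) and Cycs (-0.043 without SI 25, 33 and 39, chosen after seeing the data; -0.060 to 0.092 with 1 mouse left out). The cause was not tested. No paired analysis was possible because animal numbers are unique to each mouse.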
